A study of Mus musculus with 8 samples.

Results

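Epithelial chemokines are described here in sorted mouse Paneth cells through 7 genes, Ccl6, Ccl9, Ccl20, Ccl25, Ccl28, Cxcl16 and Cx3cl1. They were taken by symbol from the 55414 gene identifiers of the count table, by a rule that sets no threshold on measured values, and all 7 had at least 1 count in some mouse. The study sequenced mRNA (Illumina TruSeq stranded mRNA kit) of Paneth cells of C57BL/6J mice, sorted by flow cytometry from the small intestine. Standard chow was given to 4 mice (control) and zinc depleted chow to 4 mice (zinc deficient), for 7 weeks, with 1 library per mouse. The labels call the libraries of a diet separate replicates and give no other genotype or treatment, no age and no date of preparation. The cells were identified by a sorting gate, and each library is therefore a bulk measurement of all cells that passed that gate. In such samples, fewer cells of a type and less RNA per cell cannot be told apart.

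Chemokines are small secreted proteins that bind G protein-coupled receptors on leukocytes and direct their migration. They are classed by the spacing of the cysteines near the start of the mature protein: adjacent in CC chemokines, separated by a single residue in CXC chemokines and by 3 residues in the CX3C chemokine. Paneth cells lie at the base of the small intestinal crypts, next to the stem cells, and secrete alpha-defensins, lysozyme and other antimicrobial proteins from their granules. In the gut epithelium, CCL25 and CCL28 are known for the homing of lymphocytes and of IgA-producing plasma cells, CCL20 for the recruitment of CCR6-bearing lymphocytes and dendritic cells, and CXCL16 and CX3CL1 are made as membrane-bound ligands that can be shed. CCL6 and CCL9 are rodent CC chemokines that act on myeloid cells, with CCR1 as a known receptor.

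The coding sequences show this class difference directly. Each line below is a stretch of 51 bases of the annotated canonical coding sequence (GENCODE M39, GRCm39), 5′ to 3′, with the codons of the class-defining cysteines in capitals.
Ccl6: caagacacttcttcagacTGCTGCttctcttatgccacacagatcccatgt
Ccl9: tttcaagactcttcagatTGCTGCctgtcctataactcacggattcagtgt
Ccl20: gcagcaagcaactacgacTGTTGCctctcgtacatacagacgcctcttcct
Ccl25: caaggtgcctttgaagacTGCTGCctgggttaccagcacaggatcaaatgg
Ccl28: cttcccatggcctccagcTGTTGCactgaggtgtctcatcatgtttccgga
Cxcl16: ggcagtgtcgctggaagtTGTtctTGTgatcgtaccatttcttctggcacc
Cx3cl1: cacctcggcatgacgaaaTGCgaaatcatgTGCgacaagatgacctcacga
The 5 CC genes carry the codons side by side, Cxcl16 has 1 codon between them and Cx3cl1 has 3. The secreted members have short coding sequences, with 116 codons in Ccl6, 122 in Ccl9, 97 in Ccl20 and 130 in Ccl28. Cxcl16 (246 codons) and Cx3cl1 (395 codons), which encode membrane-bound ligands, are longer. The canonical Ccl25 transcript of this annotation has 228 codons, with the cysteine pair at codons 114 and 115.

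Ccl6 and Ccl9 are neighbours on the minus strand of chromosome 11. In GRCm39, Ccl6 (ENSMUSG00000018927) spans chr11:83478708-83483913 and Ccl9 (ENSMUSG00000019122) spans chr11:83463745-83473161, each with 4 exons in the canonical transcript. Their coding sequences were identical at 241 of 373 aligned positions (64.6%), the highest value among the 21 pairs of members. Near-identical genes can exchange reads, so the annotated transcripts of each member were searched for stretches of 70 bases also found in transcripts of another gene. Ccl6 and Ccl9 shared none with each other. Ccl6 shared 0 of 2146 windows with any gene and Ccl9 shared 5 of 3110.

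The other members lie apart. Ccl20 (ENSMUSG00000026166, 4 exons) spans chr1:83094487-83096888, Ccl25 (ENSMUSG00000023235, 8 exons) chr8:4374661-4540760 and Cx3cl1 (ENSMUSG00000031778, 3 exons) chr8:95498637-95509055. Ccl28 (ENSMUSG00000074715, 3 exons) spans chr13:120085355-120115895, and Cxcl16 (ENSMUSG00000018920, 5 exons) chr11:70344517-70352620. Cxcl16 overlaps the exons of Med11 and Zmynd15 on the opposite strand, and 74.6% of its windows occur in a transcript of these genes. Whether the counting used strand is not stated in any source used here, and Med11 had 588 counts over the 8 mice, so the Cxcl16 values are uncertain. The shared share of windows was 3.68% for Ccl25, 6.44% for Ccl28, 7.89% for Cx3cl1 and 0 of 1484 windows for Ccl20.

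Library depth was 8557690 to 11826416 counts in the control mice and 9924102 to 12648005 in the zinc deficient mice. A count of 0 therefore allows a level of up to 0.237 to 0.351 counts per 1000000 counts (CPM), from 3 counts, which covers counting error only. All 10 Paneth cell markers were detected and summed to 495473 to 600861 CPM in the control mice and 571260 to 660831 CPM in the zinc deficient mice. Scaling factors between libraries (TMM, which equalizes the bulk of genes) ranged from 0.719 to 1.57, so CPM and TMM-scaled CPM of a mouse can differ. Across the 10911 genes that passed the expression filter, the median log2 fold change between diets was −0.01 with TMM and −0.37 with library size alone.

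Ccl6 was among the most abundant transcripts of these cells. Per length, in TPM (counts per base of summed exon length, scaled to 1000000 in each mouse), it ranked 20 to 25 among all genes in the 8 mice, with 27312 to 38838 counts per mouse. In the control mice Ccl6 stood at 2887, 3156, 3231 and 3174 CPM, and in the zinc deficient mice at 2752, 3524, 2916 and 2414 CPM. The diets overlapped in CPM, with the highest and the lowest mouse both zinc deficient. On that scale the zinc deficient mice spread more widely (2902 ± 465 CPM, SD, n = 4) than the control mice (3112 ± 153 CPM, SD, n = 4). On the TMM-scaled levels the diets overlapped too, but the lowest mouse was control replicate 1 (1839 CPM). The control mice were then at 2847 ± 750 CPM and the zinc deficient mice at 3339 ± 1046 CPM (SD, n = 4 each). As counts, which are not corrected for length, Ccl6 alone made up 73.4% to 91.7% of the total of the 7 members in a mouse, and Ccl6 and Ccl9 together made up 98.2% to 99.6%.

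Ccl9, the neighbour of Ccl6, was the other abundant chemokine, at ranks 47 to 150 by TPM. The control mice lay close together, at 240, 244, 254 and 271 CPM, and the zinc deficient mice were higher and dispersed, at 338, 304, 482 and 861 CPM. The means were 252 ± 14.0 CPM and 496 ± 255 CPM (SD, n = 4 each), and every zinc deficient mouse lay above every control mouse. The zinc deficient mouse at 861 CPM was replicate 4. On the TMM-scaled levels the control mice were at 153, 210, 273 and 286 CPM and the zinc deficient mice at 361, 423, 440 and 1017 CPM, again without overlap. In TPM, control replicate 1 (74.3) lay above zinc deficient replicate 2 (71.5), so the diets overlapped on that scale.

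The lymphocyte-homing CC chemokines had few counts. Ccl25, the ligand of CCR9, stood at 26.8, 27.0, 18.3 and 26.1 CPM in the control mice and at 18.1, 13.8, 12.7 and 5.53 CPM in the zinc deficient mice. All zinc deficient mice were below all control mice in CPM, although the margin between zinc deficient replicate 1 and control replicate 3 was small. The diets overlapped on the TMM-scaled levels, where 6.09% of all genes tested did not overlap. The share without overlap in CPM was not counted, and with library size alone the median gene was lower in the zinc deficient mice (log2 fold change −0.37). Ccl28, the mucosal ligand of CCR10 and CCR3, stood at 22.4, 15.0, 12.7 and 8.22 CPM in the control mice and at 9.98, 5.90, 9.25 and 3.08 CPM in the zinc deficient mice. The diets overlapped for Ccl28, since control replicate 4 lay below zinc deficient replicates 1 and 3. Ccl20, the ligand of CCR6, had 3, 4, 0 and 0 counts in the control mice and 2, 2, 8 and 0 counts in the zinc deficient mice. The Ccl20 counts were too few for the expression filter, and no diet difference was detectable at this depth.

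The membrane-bound chemokines had few counts as well. Cx3cl1, the ligand of CX3CR1, stood at 6.76, 4.47, 4.91 and 3.61 CPM in the control mice and at 3.53, 3.27, 6.72 and 1.27 CPM in the zinc deficient mice. Cxcl16, the ligand of CXCR6, stood at 2.45, 0.380, 1.64 and 2.10 CPM in the control mice and at 0.806, 2.27, 0.959 and 2.45 CPM in the zinc deficient mice. Both genes overlapped between the diets. Cxcl16 rested on 4 to 31 counts and Cx3cl1 on 16 to 80 counts per mouse.

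**Figure D1:**
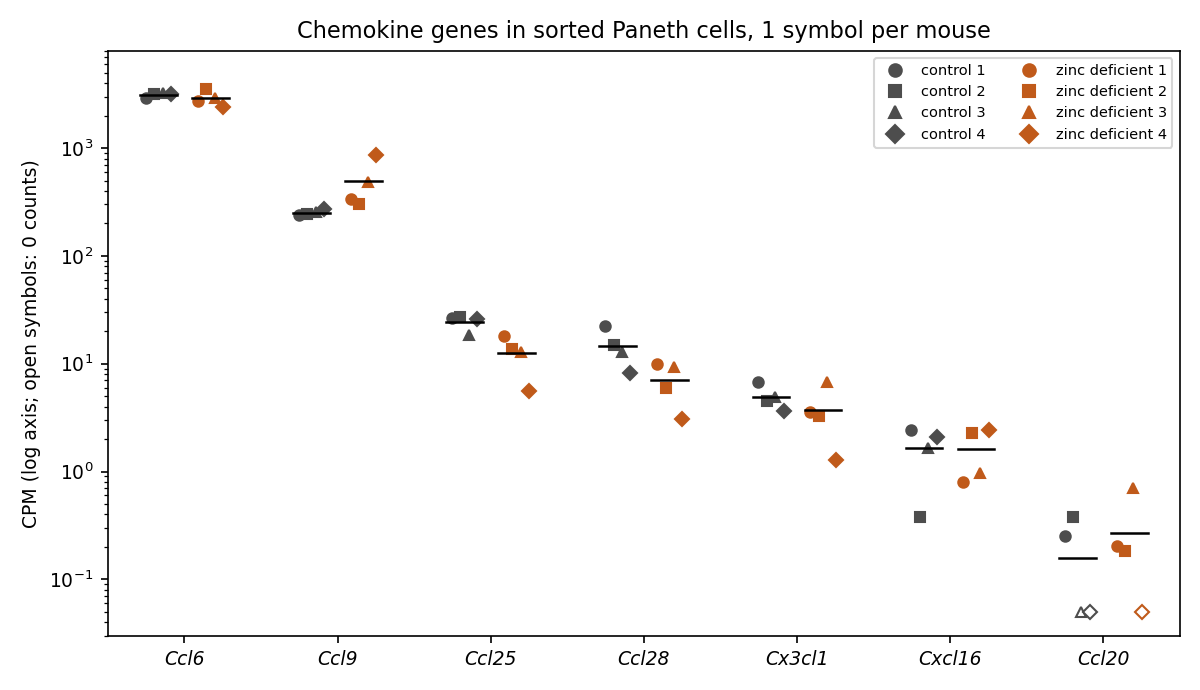
Level of the 7 chemokine genes in CPM (log axis), with 1 symbol per mouse, control in grey and zinc deficient in orange; bars are group means and open symbols at the base stand for 0 counts. Ccl6 lies between 2414 and 3524 CPM in all mice, Ccl9 between 240 and 861 CPM, and the other 5 genes at 27.0 CPM or less.

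The members were set in order of level per length, in TPM. By mean TPM over the 8 mice the order was Ccl6 at 1357, Ccl9 at 98.1, Ccl28 at 1.86, Ccl25 at 1.24, Cx3cl1 at 0.913, Cxcl16 at 0.262 and Ccl20 at 0.128. Neighbours in this order were compared within mice on the log2(TPM + 0.1) scale by an exact two-sided sign-flip permutation test, adjusted over the 6 pairs by the Benjamini-Hochberg method. Ccl6 exceeded Ccl9 by 3.92 ± 0.77 on the log2 scale (SD, 8 of 8 mice, exact test, adjusted p = 0.0234). Ccl9 exceeded Ccl28 by 5.74 ± 1.36 (SD, 8 of 8 mice, exact test, adjusted p = 0.0234). The unadjusted p of both pairs (exact test, 0.00781) is the smallest that 8 mice allow.

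Among the scarce members the order was less firm. Cx3cl1 exceeded Cxcl16 by 1.45 ± 1.03 (SD, 7 of 8 mice, exact test, adjusted p = 0.0313). Ccl28 exceeded Ccl25 by 0.46 ± 0.43 (SD, 7 of 8 mice, exact test, adjusted p = 0.0352), but Ccl25 was the higher of the pair when the longest transcript was used as gene length (−1.20), since its 33 annotated transcripts add up to 12537 exon bases while the longest has 2804. Ccl25 and Cx3cl1 (0.40 ± 0.53) and Cxcl16 and Ccl20 (0.81 ± 1.31) did not differ beyond their spread (SD, exact tests, adjusted p = 0.102 for each).

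The comparison of diets asked whether 7 weeks of zinc depleted chow changed these chemokines. Ccl9 had the largest difference of the 6 members tested, with a level 2.43-fold higher in the zinc deficient mice, but no member passed the test across all genes. Differences were tested with edgeR's quasi-likelihood test on the counts, with Benjamini-Hochberg adjustment over 10911 genes and a threshold of 0.05. At this threshold 0 of the 6 members tested were called, in a comparison where 44 of 10911 genes (0.403%) were. At an unadjusted p under 0.05 there were 3 of 6 members (Ccl9 higher, Ccl25 and Ccl28 lower), against 10.5% of all genes tested. TMM-scaled levels of the diets did not overlap for 1 of 6 members, Ccl9, against 6.09% of all genes tested.

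The log2 fold change of Ccl9 was 1.28 ± 0.32 (SE, 95% interval of the fold 1.52 to 3.90, unadjusted p = 0.00135, adjusted p = 0.115 by edgeR). DESeq2 gave Ccl9 an adjusted p of 0.0825 and called 0 members. With no expression filter edgeR called Ccl9 (adjusted p = 9.17e-08), in a fit that called 251 of 18839 genes (1.33%). The log2 fold change of Ccl9 in that fit was 1.29, so its estimate hardly moved while its adjusted p did. The reason for this dependence on the filter was not tested. The Ccl9 difference was 0.83 on the log2 scale without zinc deficient replicate 4, the mouse with the highest level (adjusted p = 0.131). Without zinc deficient replicates 3 and 4, an alternative chosen after the values were seen, it was 0.77 (adjusted p = 0.346).

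Ccl25 and Ccl28 were lower in the zinc deficient mice and did not pass the test. Ccl25 had a log2 fold change of −0.63 ± 0.28 (SE, adjusted p = 0.448 by edgeR), with a fold of 0.644 and an interval of 0.424 to 0.979. Ccl28 had −0.69 ± 0.26 (SE, adjusted p = 0.337 by edgeR), with a fold of 0.621 and an interval of 0.424 to 0.909. Without zinc deficient replicate 4 the differences were −0.39 for Ccl25 and −0.45 for Ccl28, and without replicates 3 and 4 they were −0.17 for Ccl25 and −0.38 for Ccl28.

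Ccl6, the most abundant member, did not differ detectably between the diets. Its log2 fold change was 0.23 ± 0.27 (SE, adjusted p = 0.83 by edgeR), and the interval of the fold ran from 0.789 to 1.74, which allows a change within these bounds in either direction. With library size alone the sign turned (−0.10). Cxcl16 (0.41 ± 0.55, SE, adjusted p = 0.861 by edgeR) and Cx3cl1 (−0.10 ± 0.34, SE, adjusted p = 0.949 by edgeR) had intervals of 0.595 to 2.95 and 0.571 to 1.51 for the fold. The median log2 fold change of the 6 members was 0.06, with 3 above and 3 below 0, beside −0.01 over all genes tested, with 5375 above and 5536 below 0.

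**Figure D2:**
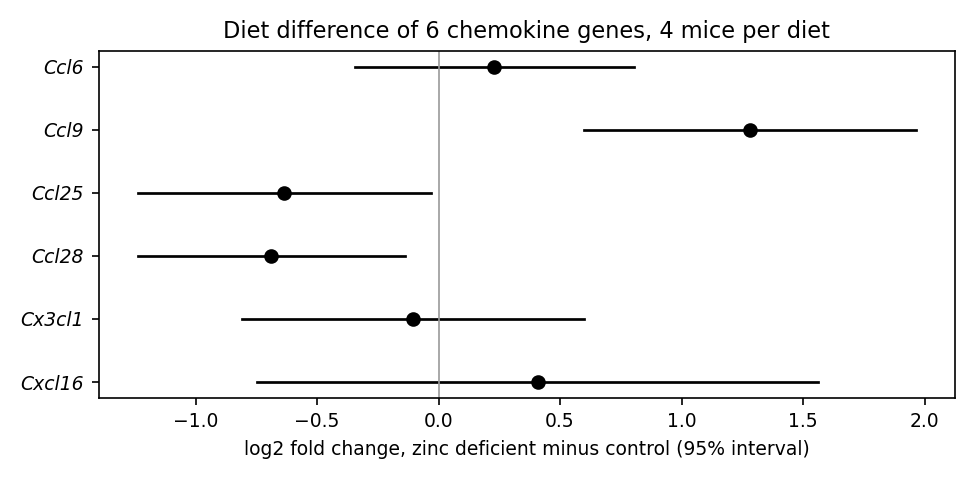
Log2 fold change of each tested chemokine gene between the diets (zinc deficient minus control, 4 mice per diet); points are the edgeR estimates and lines their 95% intervals. The interval of Ccl9 lies above 0 and those of Ccl25 and Ccl28 below 0, and none of the 6 genes passed the threshold after adjustment over all genes.

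The balance of the 2 neighbouring genes within a mouse does not depend on scaling between libraries. There were 12.0, 12.9, 12.7 and 11.7 Ccl6 counts per Ccl9 count in the control mice and 8.14, 11.6, 6.06 and 2.80 in the zinc deficient mice. All zinc deficient mice lay below all control mice, but replicate 2 did so narrowly and replicate 4 by far the most. The log2 ratio of Ccl9 to Ccl6 was −3.63 ± 0.07 in the control mice and −2.66 ± 0.87 in the zinc deficient mice (SD, n = 4 each), so the ratio was 0.96 higher. An exact permutation test (two-sided, 70 assignments) gave p = 0.0286, the smallest it can give. This comparison was chosen after the values were seen. Without zinc deficient replicate 4 the difference was 0.57 (exact permutation test, p = 0.0286), and without replicates 3 and 4 it was 0.35 (exact permutation test, p = 0.0667). Each of these p-values is the smallest that the mice left allow.

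**Figure D3:**
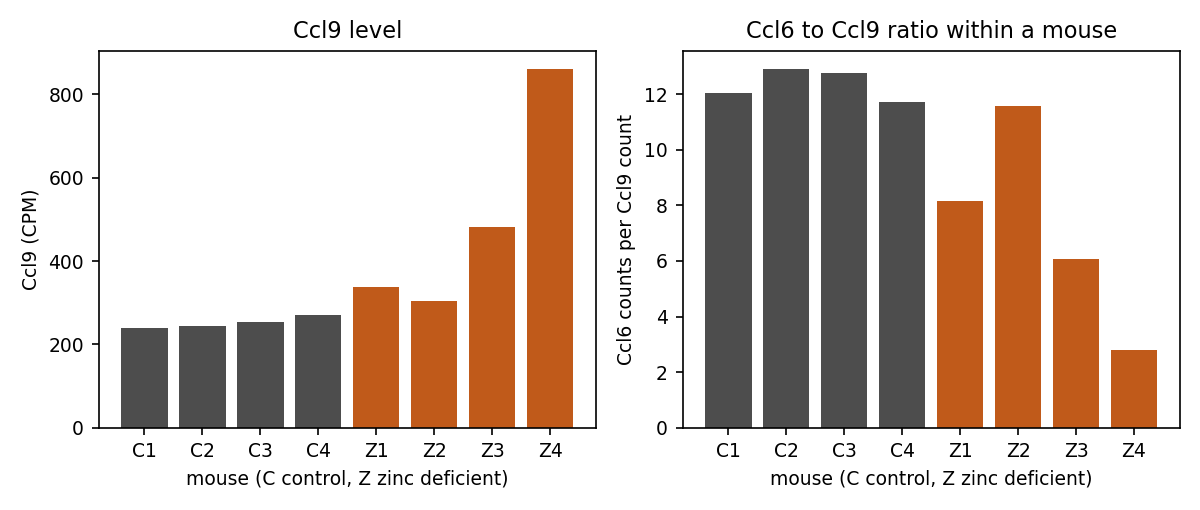
Left, Ccl9 in CPM, and right, Ccl6 counts per Ccl9 count, with 1 bar per mouse (C1 to C4 control in grey, Z1 to Z4 zinc deficient in orange). The control mice lie between 240 and 271 CPM and between 11.7 and 12.9 Ccl6 counts per Ccl9 count, and the zinc deficient mice reach 861 CPM and 2.80.

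The members were also set against Lyz1, the lysozyme gene of Paneth cells, in the same library. The log2 ratio to Lyz1 differed between diets by −1.17 for Ccl25, −1.20 for Ccl28, 0.75 for Ccl9, −0.21 for Ccl6, −0.71 for Cx3cl1 and 0.01 for Cxcl16. Lyz1 itself had a log2 fold change of 0.43 ± 0.37 (SE, adjusted p = 0.748 by edgeR), which enters each of these differences. For Ccl25 the zinc deficient mice all lay below the control mice (exact permutation test, p = 0.0286, adjusted p = 0.114 over the 6 members). No member passed after adjustment. With Itln1, another Paneth cell product, as the reference, the diets overlapped for Ccl25 (−0.93, exact permutation test, p = 0.0857, adjusted p = 0.229). The Ccl9 difference was then 0.99, without overlap (exact permutation test, p = 0.0286, adjusted p = 0.171).

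Markers of other cell types moved with some of these values. The stem and transit amplifying cell markers were Lgr5, Olfm4, Ascl2, Mki67, Top2a and Pcna. They summed to 1251 to 2012 CPM in the control mice and to 443 to 979 CPM in the zinc deficient mice, without overlap. The share of all genes without overlap in CPM was not counted. With library size alone the median gene was lower in the zinc deficient mice (log2 fold change −0.37). Olfm4 made up most of the marker sum, at 1137 to 1780 CPM and 374 to 893 CPM. All 6 had negative log2 fold changes, that of Pcna small (−0.05 ± 0.15, SE), and 1 was called (Top2a, −1.18, adjusted p = 0.0230 by edgeR). On the TMM-scaled levels Lgr5, Olfm4 and Top2a did not overlap between the diets, whereas Ascl2, Mki67 and Pcna did (6.09% of all genes tested did not). Ccl25 and Ccl28 were lower in the same mice, and the lowest value of each, of Cx3cl1 and of this marker sum fell in zinc deficient replicate 4. The 7 enteroendocrine cell markers summed to 29.4 to 47.8 CPM in the control mice and to 13.3 to 29.7 CPM in the zinc deficient mice, again lowest in replicate 4, with none of 3 tested called. Sct made up most of this enteroendocrine sum and had a log2 fold change of 0.07 (adjusted p = 0.954 by edgeR). Chgb had −1.015 (adjusted p = 0.536 by edgeR) and Chga −1.64 (adjusted p = 0.481 by edgeR). Chga stood at 2.57 to 5.89 CPM in the control mice and at 0 to 2.18 CPM in the zinc deficient mice, with 0 counts in replicate 4. On the TMM-scaled levels the diets overlapped for Chga, Chgb and Sct. The part of both marker lists in the Ccl25 and Ccl28 values was not tested.

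Zinc deficient replicates 3 and 4, the mice with the highest Ccl9, also had the highest levels of the goblet cell genes Muc2 (1005 and 2056 CPM, against 299 to 857 CPM in the other mice) and Clca1 (115 and 147 CPM, against 1.72 to 25.0 CPM). The other 5 goblet cell genes did not all share this order. Agr2 and Spink4 were highest in replicate 4 (1383 and 7752 CPM), whereas Zg16 was at 0.316 CPM there (at least 9.30 CPM in each control mouse), Fcgbp at 94.2 CPM (337 to 510 CPM in the control mice) and Tff3 at 585 CPM (573 to 923 CPM in the control mice). The goblet cell list of 7 genes summed to 7150 to 10366 CPM in the control mice and to 7087 to 12018 CPM in the zinc deficient mice, with the highest value in replicate 4, none of its genes at 0 and none called. The tuft cell list summed to 52.7 to 88.6 CPM in the control mice and to 14.2 to 424 CPM in the zinc deficient mice, the highest in replicate 3. Some Paneth cell markers were also higher in the zinc deficient mice. In the edgeR fit all 10 had log2 fold changes above 0, from 0.07 (Habp2) to 1.45 (Mptx2). At an unadjusted p under 0.05 there were 4, against 10.5% of all genes tested, and none was called. Mptx2, a mucosal pentraxin, stood at 7200 to 8944 CPM in the control mice and at 12140 to 25300 CPM in the zinc deficient mice. Ang4, an antimicrobial ribonuclease, stood at 11669 to 14037 CPM and at 16055 to 33404 CPM. Neither overlapped between the diets, in CPM or on the TMM-scaled levels (6.09% of all genes tested did not overlap on the latter). Both were highest in replicate 4, and none of the other Paneth cell markers was. In CPM, Lyz1 was at its lowest of all mice there (141365 CPM). The TMM factor was 0.846 in that mouse and 1.57 in control replicate 1, so the TMM-scaled order of Lyz1 can differ. Defa21 and Defa22 (18288 and 16675 CPM) were lower in zinc deficient replicate 4 than in the other zinc deficient mice. Mean CPM of Itln1, Defa30 and Habp2 was lower in the zinc deficient than in the control mice. The part of these markers in the Ccl9 values was not tested.

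Markers of leukocytes, which produce CCL6 and CCL9 in other tissues, were low. The list of 14 macrophage, monocyte and granulocyte genes summed to 28.3 to 38.7 CPM in the control mice and 31.2 to 53.3 CPM in the zinc deficient mice, and Lyz2, which Paneth cells may also express, accounted for 23.0 to 48.2 CPM. Adgre1, Csf1r, C1qc, S100a8 and S100a9 had 0 counts in all 8 mice, while the other 9 genes of this list had counts. Cd14 stood at 1.29 to 3.55 CPM in the control mice and at 0.0907 to 1.22 CPM in the zinc deficient mice. Its log2 fold change was −1.35 (adjusted p = 0.365 by edgeR), without overlap on the TMM-scaled levels (6.09% of all genes tested did not overlap). C1qa reached at most 0.930 CPM and Cd68 at most 0.436 CPM. Ptprc, the pan-leukocyte gene, was at most 0.351 CPM in 7 mice and at 2.79 CPM in zinc deficient replicate 3. The 10 T cell genes summed to at most 1.19 CPM in a mouse, and markers of B and plasma cells, of stromal and vessel cells and of erythroid cells to at most 0.791, 0.761 and 0.761 CPM. Enterocyte markers summed to 37.3 to 150 CPM in the control mice and 19.6 to 152 CPM in the zinc deficient mice.

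**Figure D4:**
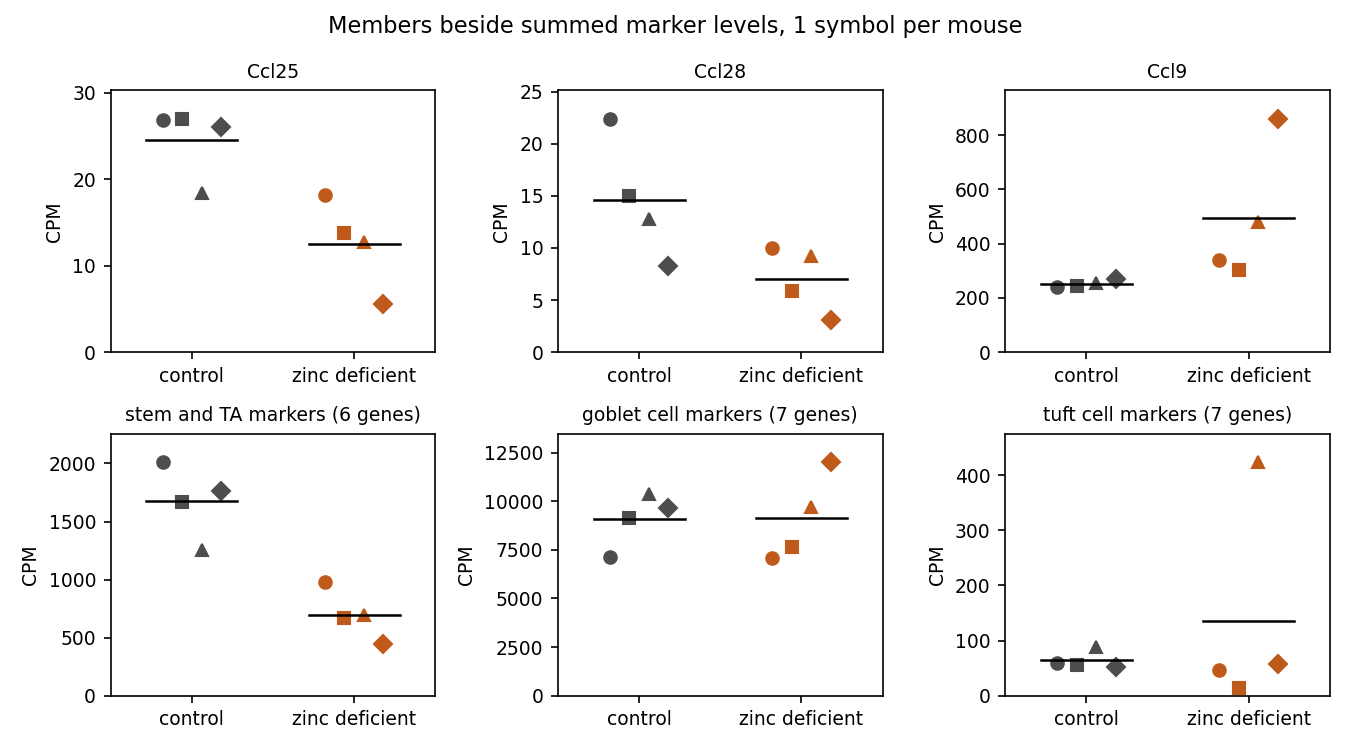
CPM of Ccl25, Ccl28 and Ccl9 (top) and of summed marker lists (bottom), with 1 symbol per mouse in the same shape throughout and bars at group means; TA means transit amplifying. The stem and transit amplifying sum, most of it Olfm4, does not overlap between the diets (1251 to 2012 against 443 to 979 CPM). The share of all genes without overlap in CPM was not counted. The highest goblet sum (12018 CPM) falls in the zinc deficient mouse with the highest Ccl9 (diamond).

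The rest of the chemokine system was nearly silent in these libraries. Of 31 other chemokine ligands, 25 had 0 counts in all 8 mice, among them the neutrophil and monocyte attractants Cxcl2, Cxcl5, Ccl2, Ccl3 and Ccl4. The remaining 6 were low, with Ccl27a at 0.948 CPM and Cxcl13 at 1.03 CPM on average as the 2 that passed the filter, neither of them called. Ccl5 had 5 counts, all in zinc deficient replicate 4. The sum of these 31 ligands was 1.42 to 2.96 CPM per mouse.

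Receptors for the members were also close to absent from the counts. Ccr1, Ccr3, Ccr6 and Cxcr6 had 0 counts in all mice, and Ccr9, Ccr10 and Cx3cr1 had 1 count each over the 8 mice. Of 23 chemokine receptors, 13 had 0 counts in all mice and 4 passed the filter, namely Cxcr4 (3.29 CPM), Ccrl2 (4.82 CPM) and the atypical receptors Ackr1 (3.47 CPM) and Ackr4 (1.51 CPM). None of the 4 was called, with log2 fold changes from −0.25 for Ackr1 to 0.84 for Ackr4.

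The proteases that can release membrane-bound CXCL16 and CX3CL1 were present. Adam10 averaged 33.3 CPM and Adam17 averaged 8.24 CPM. Of the list of 5 sheddases and regulators, 4 were tested and 0 called, with log2 fold changes from −0.35 for Rhbdf2 to 0.29 for Adam17. Pigr, which carries dimeric IgA across the epithelium, averaged 750 CPM and had a log2 fold change of −0.03 ± 0.20 (SE, adjusted p = 0.975 by edgeR). Of the 9 genes of IgA homing and transport, 2 were tested and 0 called.

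NF-kappaB signalling is a known inducer of several chemokine genes. Of 23 genes of this pathway and of receptors upstream of it, 21 were tested and 0 called, with a median log2 fold change of −0.03 and 9 above and 12 below 0. At an unadjusted p under 0.05, 1 was higher, Tnfrsf1a, a receptor of TNF (0.32 ± 0.14, SE, adjusted p = 0.414 by edgeR). Rela averaged 17.8 CPM and Nfkbia averaged 24.6 CPM.

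For the abundant members, Ccl6 and Ccl9, the 250 bases before the canonical start are shown (GRCm39, minus strand, 5′ to 3′). Capitals mark matches to any of 6 motifs searched on both strands.
Ccl6, chr11:83483914-83484163: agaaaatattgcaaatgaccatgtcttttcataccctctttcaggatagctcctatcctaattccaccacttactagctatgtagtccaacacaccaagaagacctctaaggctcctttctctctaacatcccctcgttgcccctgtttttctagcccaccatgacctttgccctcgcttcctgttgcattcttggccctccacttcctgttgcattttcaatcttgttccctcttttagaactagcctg
Ccl9, chr11:83469468-83469717: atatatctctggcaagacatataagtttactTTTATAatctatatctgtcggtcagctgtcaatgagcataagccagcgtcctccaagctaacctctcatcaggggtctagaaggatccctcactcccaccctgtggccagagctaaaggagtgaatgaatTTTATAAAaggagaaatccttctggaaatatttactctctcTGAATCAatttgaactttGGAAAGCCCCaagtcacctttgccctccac
The motifs were NF-kappaB (GGG, 5 unspecified bases and CC), AP-1 (TGANTCA), STAT (TTCNNNGAA), the interferon-stimulated response element core (GAAA, 2 unspecified bases and GAAA), the TATA box (TATAAA) and the metal response element core (TGCACNC or TGCGCNC). The Ccl9 window held an NF-kappaB match 30 to 21 bases before the start, an AP-1 match at 48 to 42 bases and TATA box matches at 89 to 82 bases, where matches on the 2 strands overlap, and at 219 to 214 bases. The Ccl6 window held none of the 6. In the windows of the other members, Ccl20 held overlapping NF-kappaB matches at 82 to 71 bases and Ccl28 an NF-kappaB match at 64 to 55 bases. Ccl25 held a metal response match at 131 to 125 bases, and Cxcl16 and Cx3cl1 held no match. The part of these matches in the levels was not tested. Over 21627 promoters of the same length, 47.8% held the NF-kappaB letters, 6.19% AP-1, 7.73% STAT, 3.32% the interferon core, 11.9% the TATA box and 21.9% the metal response core. A match in letters is a description of the sequence, and binding was not measured.

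Genes whose pattern over the 8 mice was most like that of a member are given as a description. Likeness was Pearson's r of log2(TMM-scaled CPM + 1) against 7944 genes (7945 for Cxcl16 and Cx3cl1), over points that share libraries and scaling. For Ccl6 these were Ramp1 (r = 0.987), Atp5me (0.972), Cnpy2 (0.970), Stard3nl (0.967) and Pfdn5 (0.967). For Ccl9 they were Tmsb10 (0.985), Pla2g12a (0.982) and C1galt1c1 (0.970), and for Ccl25 they were Cbx6 (0.994), Mad2l1 (0.974) and Sdc4 (0.973). Ccl28 was most like Bhlhe40 (0.981), Slc25a23 (0.971) and Slc27a2 (0.971), and Cx3cl1 most like Tor4a (0.973), Man2a1 (0.961) and Gmeb2 (0.950). Cxcl16, with few counts, reached lower values, with Rars2 at 0.918, Zfp53 at 0.909 and Phykpl at 0.890.

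Ccl6 was not the nearest gene to its neighbour Ccl9. Their r was 0.367 over the 8 mice, with 0.987 within the 4 control mice and −0.264 within the 4 zinc deficient mice. These values are on TMM-scaled levels, where the factor of a mouse (0.928 to 1.57 in the control mice) acts on both genes. Among the members the strongest relation was that of Ccl9 with Ccl28 (r = −0.935, and −0.625 within the control and −0.994 within the zinc deficient mice).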

How the data were processed

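RNA-seq libraries of Paneth cells from 8 mice were used, grouped by diet from the labels. The authors deposited raw gene counts per Ensembl identifier in 1 table, without normalization. The submitters' processing notes name FastQC 0.12.0, STAR 2.7.0a, DESeq2 and the mm39 build, with no role or order, while the counting program and its strand setting are not named by any source used here. No column of another sample was present. Identifiers were named with GENCODE M39 (54749 of 55414), and the 665 without a name held 0.0039% to 0.00991% of a library and stayed in the totals.

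CPM and TPM were computed from the counts, TPM with the summed exon length. Library depth was 8557690 to 12648005 counts. The diet comparison used the robust quasi-likelihood test of edgeR 4.0.16 under R 4.3.3 (expression filter, TMM scaling, Benjamini-Hochberg adjustment over all genes tested, threshold 0.05). The step was tested on simulated counts of 10911 genes, 200 of them changed. It called 96% of the 4-fold and 65% of the 2-fold changes, and 5.29% of its calls were on unchanged genes. Levels between genes and ratios within a mouse were compared with exact two-sided permutation tests. DESeq2 1.42.0, other scalings, no filter, a replicate block and leaving out each mouse were alternatives. Each p-value sets a difference against the variation between these libraries or against the rearrangements that its exact test allows. The members and gene lists were chosen with earlier results of these data known, and cell type lists hold genes that Paneth cells also express. Named genes are all members, genes of the lists, the members' receptors and, as a description, the 3 genes (5 for Ccl6) of highest correlation with a member, among genes averaging 5 CPM or more. Sequences were read from GRCm39, coding sequences and exons from GENCODE M39. The remaining steps ran in Python 3.11.15 (Biopython 1.88, matplotlib 3.10.9, pandas 2.3.3, scipy 1.17.1 and numpy 2.4.6).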

Additional observations from a re-analysis of the deposited data

Results flagged for a closer look

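The level of Ccl25 in control replicate 3 (18.3 CPM) lay apart from the other 3 control mice (26.1 to 27.0 CPM), by Dixon's test in a group of 4, with a gap of 0.891 of the group's range (above the 95% critical value). Over the 14 groups examined, chance flags about 1 in 20. Without this mouse the log2 fold change of Ccl25 was −0.68, beside −0.63 with it.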

How the results depend on the processing

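The number of genes called between diets was 44. It was 37 with DESeq2 size factors, 42 with scaling without the Defa genes, 11 with library size only, 25 without the robust option, 251 with no expression filter, 146 with the DESeq2 Wald test, 8 to 36 when 1 mouse was left out and 10 without zinc deficient replicates 3 and 4. Members called were 0 in these settings, except 1 (Ccl9) with no expression filter. Deviations of mice with the same replicate number were weakly correlated (0.114, 0.0925, 0.00486 and 0.0926). The labels give only a number, and these correlations cannot show whether same-numbered mice were handled together, so pairing is unknown. With the replicate block 53 genes and 1 member (Ccl9, log2 fold change 1.19, adjusted p = 0.00879 by edgeR) were called. Sign flips of the 4 blocked differences gave p = 0.125 for the ratio of Ccl9 to Ccl6 (0.96, exact test), the smallest they allow.

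The Ccl9 log2 fold change ranged from 0.77 to 1.44 over all alternatives, and from 0.83 to 1.44 with 1 mouse left out. Reversed signs were found in members that were not called: Ccl6 with library size only (−0.10) and without zinc deficient replicate 2 (−0.012), Cxcl16 with library size only (−0.015), and Cx3cl1 without control replicate 3 (0.00048) or zinc deficient replicate 4 (0.18). With 1 mouse left out, the range was −0.012 to 0.34 for Ccl6 and −0.41 to 0.18 for Cx3cl1. The ratio to Lyz1 turned for Ccl6 with Itln1 as the reference (0.026) and for Cxcl16 without control replicate 2, zinc deficient replicate 2 or 4 (−0.62, −0.18 and −0.31, in a range of −0.62 to 0.34). The ratio of Ccl9 to Ccl6 lay between 0.57 and 1.25 with 1 mouse left out (exact p = 0.0286 to 0.0571) and at 0.35 without zinc deficient replicates 3 and 4. Of 6 neighbouring pairs of levels, 4 differed, against 2 to 6 with 1 mouse left out and 0 in the control or the zinc deficient mice alone, where the smallest p of 4 sign flips is 0.125. Ccl28 over Ccl25 turned with CPM (−0.83) and with the longest transcript as gene length (−1.20). The causes were not tested. Depth limits Cxcl16, Cx3cl1 and Ccl20.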
